A study of Mus musculus with 6 samples.

Results

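Of the 8 genes Mbp, Erbb3, S100b, Sox10, Pmp22, Prx, Gfap and Fabp7, which mark Schwann cells and the sustentacular cells of the adrenal medulla, 6 had a probe set assigned to a single gene symbol in the array's annotation, 1 probe set each, out of 16769 such probe sets of 15384 genes. S100b and Prx were not analysed here. The CGP group consisted of female C57Bl/6J offspring of dams given the competitive NMDA receptor antagonist CGP 39551 by mouth (5 mg/kg body weight) during pregnancy and until weaning ended, and the control group of age-matched female C57Bl/6J offspring without the drug. Whether the control dams received a vehicle is not given in the sources used here. Adrenals were collected at 21 weeks of age, and the RNA of 18 mice was pooled per group and read on 3 arrays. Because the sources used here do not say whether the 3 arrays carried a single pool or separate pools, the p-values measure only the spread between arrays, which may be technical.

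Schwann cells wrap the axons that enter the gland, and sustentacular cells, which arise from the same neural crest lineage, enclose the chromaffin cells of the medulla. The transcription factor Sox10 maintains this lineage. Neuregulins from axons act on the receptor Erbb3, which signals as a dimer with Erbb2 and sustains Schwann cell precursors, and myelinating cells then make the compact myelin proteins Mbp and Pmp22. Gfap, an intermediate filament protein, and Fabp7, a fatty acid binding protein, are found in non-myelinating and satellite glia. Several of these genes are active outside glia too: Erbb3 is also expressed by hepatocytes, and Pmp22 by fibroblasts.

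Of the listed genes, 2 differed between the groups, in opposite directions. Erbb3 was 1.25-fold lower and Mbp 1.18-fold higher in the CGP group, while Sox10, Fabp7 and Pmp22 did not pass the test and Gfap was too dim to be tested. Thus 2 of 5 tested members were called (limma, adjusted p under 0.05 over all probe sets tested), 1 higher and 1 lower, and of all 16034 tested probe sets 3.53% were called, 1.94% as higher and 1.59% as lower, a split in which lower calls outnumbered higher ones without CGP array 1 (151 higher, 169 lower), CGP array 2 (79 and 157), CGP array 3 (88 and 149), control array 2 (157 and 207) or control array 3 (114 and 155). The groups did not overlap at the same 2 of 5 members and at 26.3% of all tested. The median difference was -0.03 (log2, CGP minus control) over the 5 members and -0.01 over all tested probe sets. In a sample of whole tissue, fewer cells of a type and less RNA per cell cannot be told apart.

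Pairs of arrays differed over the tested probe sets with a standard deviation of 0.103 to 0.128 (log2) within the CGP group, 0.135 to 0.177 within the control group and 0.160 to 0.218 between groups. Genes of the adrenal cortex and of chromaffin cells were present as the tissue label requires, with none of the 11 and 15 tested under the array background on all 6 arrays. Background was set per array at the 75th percentile of 128 sensory receptor probe sets (olfactory, vomeronasal and trace amine), and lay at 6.41 to 6.55 on the CGP arrays and 6.49 to 6.65 on the control arrays.

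Erbb3, the neuregulin receptor of the glial lineage, had log2 values of 7.39, 7.34 and 7.26 on the CGP arrays, against 7.69, 7.63 and 7.63 on the control arrays. All 3 CGP values lay under all 3 control values and above background. The means were 7.33 ± 0.07 in the CGP group and 7.65 ± 0.04 in controls (SD, n = 3 each), a difference of -0.32 (SE 0.05, 95% interval -0.44 to -0.20, limma adjusted p = 0.0156). On the linear scale this was 1.25-fold lower, with an interval of 1.15 to 1.36. Of all tested probe sets, 2.93% differed by at least as much in either direction. The call was lost without CGP array 2 (adjusted p = 0.0784), CGP array 3 (0.0718) or control array 3 (0.0582). It just missed the threshold when all 25150 probe sets were tested, whatever their annotation or level (limma adjusted p = 0.0511). With array number as a block in the fit it was also lost (limma adjusted p = 0.0702).

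Mbp encodes myelin basic protein, and its longer golli transcripts are also found in immune cells. Its log2 values were 7.91, 7.91 and 7.86 on the CGP arrays and 7.67, 7.62 and 7.68 on the control arrays, so that every CGP value exceeded every control value. The means were 7.89 ± 0.03 in the CGP group and 7.66 ± 0.03 in controls (SD, n = 3 each). The difference was 0.24 (SE 0.04, 95% interval 0.13 to 0.34, limma adjusted p = 0.0312), or 1.18-fold higher with an interval of 1.10 to 1.27. A difference of this size or more was seen at 6.87% of the tested probe sets. The call of Mbp was lost without control array 2 or 3 or any CGP array (adjusted p = 0.0813 to 0.150) and held only without control array 1 (0.0403). Testing all probe sets, whatever their annotation or level, gave a limma adjusted p of 0.0778. With array number as a block in the fit, the limma adjusted p was 0.160.

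**Figure D1:**
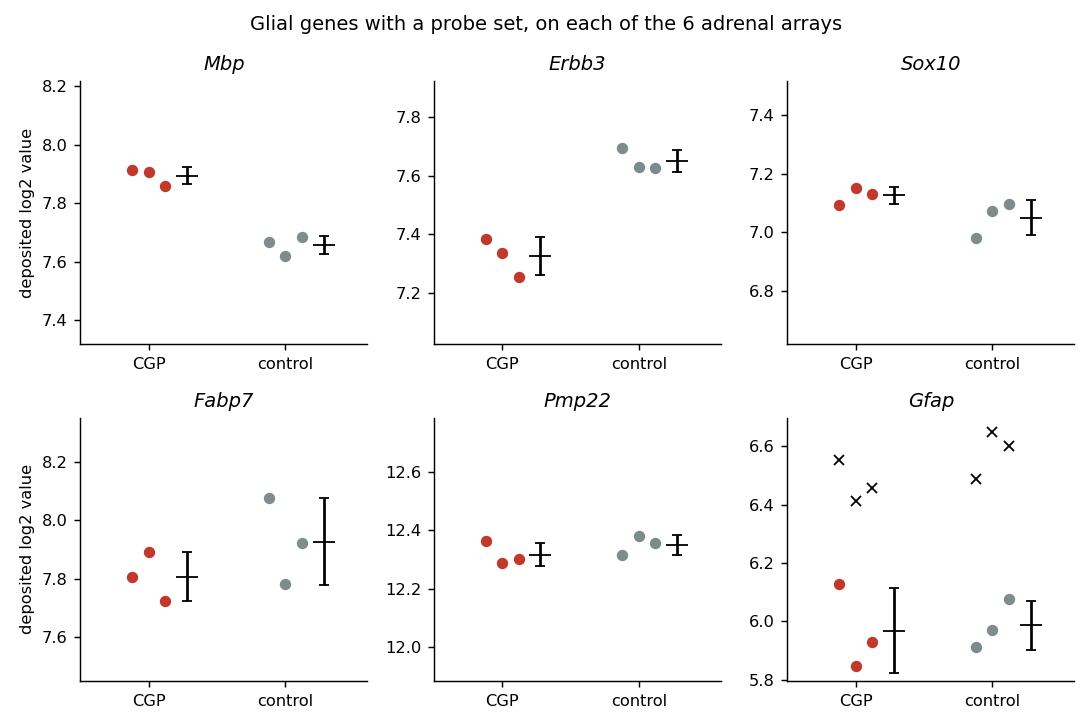
Deposited log2 values (vertical axis, each panel spanning 0.9 log2 units) of the 6 genes on the CGP arrays (red) and control arrays (grey), with black bars for group means and SDs and crosses for the array background in the Gfap panel. The groups are apart for Mbp, with all CGP points higher, and for Erbb3, with all CGP points lower, they overlap for the other 4 genes, and every Gfap point lies under its background.

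Sox10, which marks both Schwann and sustentacular cells, had log2 values of 7.09, 7.15 and 7.13 on the CGP arrays and of 6.98, 7.07 and 7.10 on the control arrays. The groups overlapped narrowly, at CGP array 1 and control array 3. The difference of 0.08 did not pass the test (SE 0.05, 95% interval -0.04 to 0.19, limma adjusted p = 0.439), and the interval leaves room for a value in the CGP group up to 1.14-fold higher or 1.03-fold lower. An equally large difference was seen at 48.6% of all tested probe sets. The probe set lay above background on every array.

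Fabp7, a fatty acid binding protein of immature and satellite glia, gave 7.80, 7.89 and 7.72 on the CGP arrays and 8.08, 7.78 and 7.92 on the control arrays (log2). Control array 1 was the highest and CGP array 3 the lowest, with the others between them in mixed order. The difference of -0.12 did not pass (SE 0.08, 95% interval -0.31 to 0.07, limma adjusted p = 0.455). Fabp7 was the least precisely measured of the 5, as 80.7% of the tested probe sets had a standard error as small or smaller, and it could have been up to 1.24-fold lower within its interval. Without control array 1 the difference shrank to -0.04, and without control array 2 it widened to -0.19.

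Pmp22 encodes a membrane protein of compact myelin that is also made outside the nervous system. Its log2 values were 12.36, 12.29 and 12.30 on the CGP arrays and 12.31, 12.38 and 12.36 on the control arrays, intermingled throughout. The difference was -0.03 (SE 0.05, 95% interval -0.14 to 0.07, limma adjusted p = 0.726), which bounds any decrease at 1.10-fold and any increase at 1.05-fold within the interval. Mouse Pmp22 is transcribed from several promoters, of which an upstream one is tied to myelination and a downstream one is more broadly active, and the annotation assigns the probe set to several Pmp22 transcripts, so that its single value is not split by start site. RefSeq (GRCm38.p6) has 4 Pmp22 starts on the plus strand of chromosome 11. The 250 bases before the most upstream start and before the third start are shown as examples, with each CG dinucleotide in capitals. Which start belongs to which of these promoters was not tested.
Pmp22, chr11:63128732-63128981, plus strand: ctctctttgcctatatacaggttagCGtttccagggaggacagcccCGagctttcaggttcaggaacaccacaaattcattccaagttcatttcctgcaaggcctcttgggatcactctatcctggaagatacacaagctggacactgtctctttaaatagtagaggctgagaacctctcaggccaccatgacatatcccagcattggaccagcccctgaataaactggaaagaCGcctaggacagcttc
Pmp22, chr11:63132319-63132568, plus strand: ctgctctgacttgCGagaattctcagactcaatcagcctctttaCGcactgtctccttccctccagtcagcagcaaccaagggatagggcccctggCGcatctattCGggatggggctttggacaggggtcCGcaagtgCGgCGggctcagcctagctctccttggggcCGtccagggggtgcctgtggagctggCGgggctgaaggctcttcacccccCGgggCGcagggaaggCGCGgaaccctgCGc
The upstream window was 48.8% G or C with 3 CG dinucleotides and the third 64.8% with 14, against medians of 52.4% and 6 over all 32851 RefSeq windows of that length. Of the windows not shown, the second was 61.2% with 14, and the fourth, which overlaps the third, was 73.6% with 27. The letters AACAAT or ACAAAG, short forms of the motif bound by Sox family proteins, occurred on neither strand of the 4 Pmp22 windows, nor in those of Gfap and Fabp7, and 24% of all windows held at least 1 of them.

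Gfap, a filament protein of astrocytes and non-myelinating Schwann cells that hepatic stellate cells also express, read 6.13, 5.85 and 5.93 on the CGP arrays and 5.91, 5.97 and 6.08 on the control arrays (log2). All 6 values were under the background of their array. Gfap did not reach a log2 value of 6 on 3 arrays, the minimum for testing, and neither a level nor a difference can be read from it.

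In each of 3 wider sets, of myelin, of other peripheral glia and of the ErbB pathway, 1 gene was called, where 3.53% of all tested probe sets were. Of 21 listed genes of myelin and myelinating Schwann cells, 17 were tested, of which 1 was lower and 16 did not pass, with a median difference of -0.08. The difference was negative for 12 and positive for 5, against 8729 negative and 7305 positive of all tested probe sets. An unadjusted limma p under 0.05 was seen at 5 of the 17 (19.3% of all tested), and the groups did not overlap at 6 (26.3%). Gjb1, the gap junction protein of non-compact myelin that is also abundant in hepatocytes, had log2 values of 6.97, 6.88 and 6.94 on the CGP arrays and 7.22, 7.43 and 7.48 on the control arrays. It was lower in the CGP group, with a difference of -0.45 (SE 0.07, limma adjusted p = 0.0160), a call that held only when control array 1 was the array left out (up to 0.0870 without another). Mag, Pllp and Drp2 lay under background on all 6 arrays.

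Of 22 listed genes of non-myelinating Schwann, satellite and sustentacular cells, 17 were tested, 1 was higher and 16 did not pass, with a median of -0.01. An unadjusted limma p under 0.05 was seen at 3 of the 17 (19.3% of all tested probe sets), and the groups did not overlap at 3 (26.3%). Zeb2, a transcription factor required for Schwann cell differentiation and also expressed by many other cell types, gave 9.07, 9.08 and 9.08 (log2) on the CGP arrays and 8.89, 8.74 and 8.84 on the control arrays. The CGP values were nearly identical and all exceeded the controls, by 0.25 on average (SE 0.05, limma adjusted p = 0.0424). This call too was kept only without control array 1 (up to 0.164 without another array). Ngfr, the low-affinity neurotrophin receptor of immature and non-myelinating Schwann cells, averaged 8.38 ± 0.13 in the CGP group and 8.30 ± 0.11 in controls (SD, n = 3 each) and did not pass (0.08, SE 0.08, limma adjusted p = 0.622). Artn and Gap43 lay under background on all arrays.

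In the neuregulin and ErbB pathway, 15 of 16 listed genes were tested, 1 was higher and 14 did not pass, with a median of 0.0007. An unadjusted limma p under 0.05 was seen at 5 of the 15 (19.3% of all tested probe sets), and the groups did not overlap at 5 (26.3%). The gene called was Nrg4, a neuregulin secreted by brown fat that acts on ErbB receptors of the liver. Its log2 values were 7.64, 7.71 and 7.69 on the CGP arrays, all above the 7.10, 6.84 and 7.20 of the control arrays. The difference was 0.63 (SE 0.09, limma adjusted p = 0.00784), and the call was lost without CGP array 3 (0.0529). Erbb2, the partner of Erbb3, averaged 7.51 ± 0.06 in the CGP group and 7.46 ± 0.12 in controls (SD, n = 3 each), with a difference of 0.05 that did not pass (SE 0.07, limma adjusted p = 0.726). Nrg1, the axonal ligand of Erbb3, lay under background on all 6 arrays, so that no level or difference can be read from it.

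**Figure D2:**
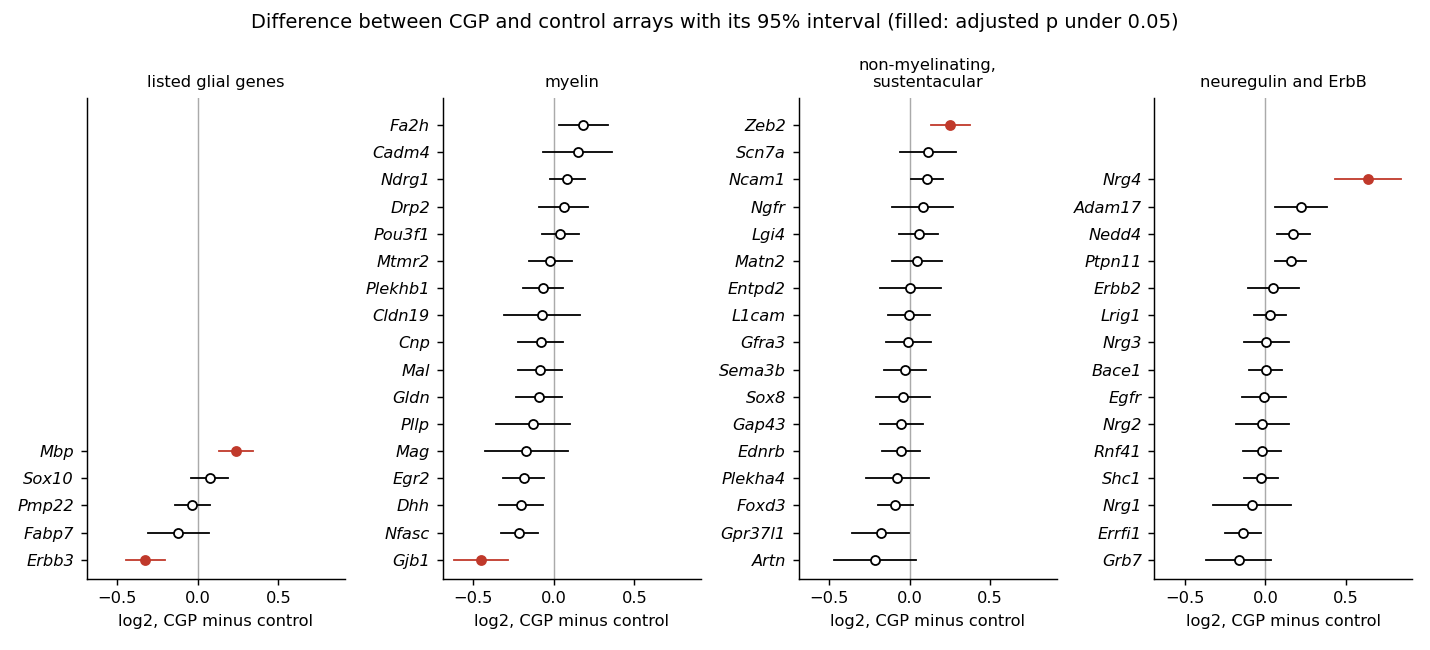
Log2 difference (horizontal axis, CGP minus control) with its 95% interval for each tested gene (vertical axis) of the listed glial genes and of 3 related sets, filled red where the limma adjusted p was under 0.05. Called genes are Mbp and Erbb3 among the 5 listed, Gjb1 among 17 of myelin, Zeb2 among 17 of non-myelinating and sustentacular cells and Nrg4 among 15 of the ErbB pathway.

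Lists of chromaffin cells, of neurons and of central glia were read against all tested probe sets, of which 3.53% were called and 19.3% had an unadjusted p under 0.05. At that share lists of their size can be without a call. By limma, 0 of 15 chromaffin genes passed, with 2 at an unadjusted p under 0.05 and a median of -0.03. The difference was 0.01 for Th, tyrosine hydroxylase (SE 0.04, limma adjusted p = 0.941), and -0.05 for Pnmt, the enzyme of the adrenaline step (SE 0.05, limma adjusted p = 0.640). Of 11 genes of neurons and axons, 0 passed by limma and 4 had an unadjusted p under 0.05, with a median of -0.05. Of 6 tested genes of central nervous system glia, 0 passed by limma and 1 had an unadjusted p under 0.05, and the median was -0.03. Olig2 lay under background on all 6 arrays and Mog on 1 CGP array and 1 control array, while Olig1, Aldh1l1, Pdgfra and Cspg4, the last 3 of which are also expressed by cells outside the nervous system, lay above it on all 6.

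Markers of hepatocytes and of adipocytes differed between the groups in the directions of Erbb3 and Mbp, respectively. Both lists were chosen with earlier results of these data known, so their counts of calls are a description only. All 18 tested hepatocyte genes were called lower in the CGP group, against 1.59% of all tested probe sets. Their median difference was -0.77, and none lay under background on all 6 arrays. The per-array median of this list was 9.25 to 9.38 (log2) in the CGP group and 10.05 to 10.12 in controls, and its summed linear signal was 23000 to 23500 on the CGP arrays and 37800 to 38000 on the control arrays. The smallest adjusted p in the list belonged to Hgd, Cps1, Kng1 and Apoa2, with differences of -1.25, -1.20, -1.05 and -1.03, and that of albumin (Alb) was -0.42. Cyp7a1 lay under background on the 3 CGP arrays. The liver markers were thus lower on the same arrays as Erbb3 and Gjb1, and their part in these results was not tested. Within the CGP group, Erbb3 fell from array 1 to array 3 (7.39, 7.34 and 7.26) while the hepatocyte median rose (9.25, 9.36 and 9.38). Within the control group, both were highest on array 1 (Erbb3 7.69, 7.63 and 7.63, hepatocyte median 10.12, 10.05 and 10.08). Such small differences between arrays of a group may be technical, and a link between the 2 was not tested.

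Of 15 tested genes of adipocytes and brown fat, 13 were higher and 2 did not pass, with a median of 0.54, where 1.94% of all tested probe sets were called higher. The calls in this list and in the hepatocyte list were not followed when single arrays were left out. The per-array median was 11.41 to 11.55 (log2) in the CGP group and 10.86 to 10.97 in controls, with a summed linear signal of 43800 to 44200 on the CGP arrays and 31100 to 31800 on the control arrays. None of the 15 lay under background on all 6 arrays. Ucp1, which uncouples respiration in brown adipocytes, was higher by 1.22, Aqp7 by 1.02, Slc2a4 by 0.65, Elovl3 by 0.91 and Adipoq by 0.54. The fat markers were higher on the same arrays as Mbp, Zeb2 and Nrg4, and their part in these results was not tested. Within the CGP group, Mbp (7.91, 7.91 and 7.86) and the adipocyte median (11.55, 11.44 and 11.41) were both lowest on array 3. With so few arrays the lowest one can coincide by chance, and a link between the 2 was not tested.

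**Figure D3:**
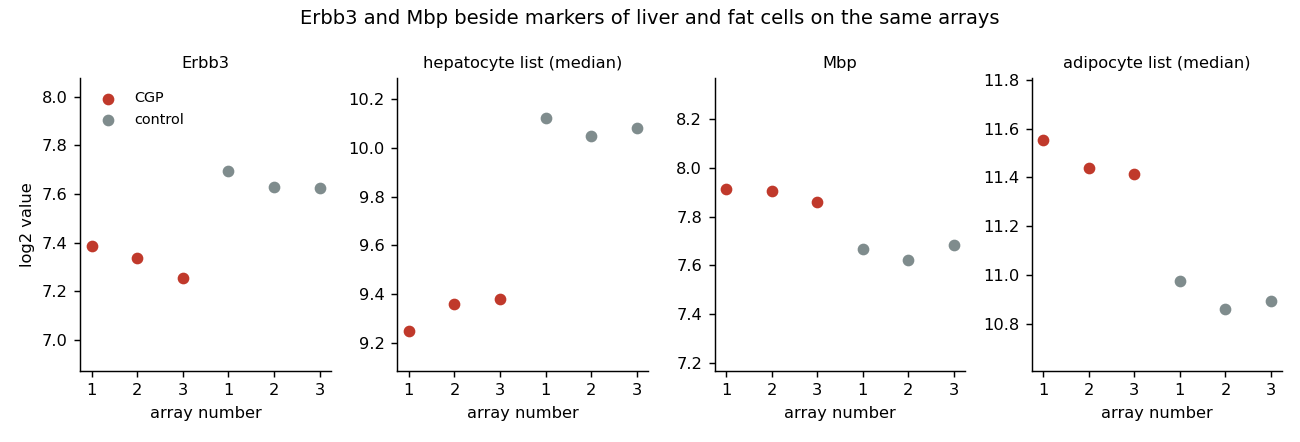
Log2 values (vertical axis, each panel spanning 1.2 log2 units) of Erbb3, of the median of 18 hepatocyte genes, of Mbp and of the median of 15 adipocyte and brown fat genes on each CGP array (red) and control array (grey), by array number. Erbb3 and the hepatocyte median are lower on all 3 CGP arrays, and Mbp and the adipocyte median are higher on all 3.

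Over the 6 arrays, the genes whose values ran most like those of Erbb3 were Cyp2j5, a cytochrome P450 of liver and kidney (Pearson r = 0.9996), Igha (0.997), Gpha2 (0.9955), Tomm6 (0.9949) and Mrpl21. With 6 arrays in 2 groups, any probe set that differs between the groups can reach a high r, so this is a description only. Cyp2j5 differed by -0.59 (limma adjusted p = 0.00301) and Mrpl21 by -0.26 (limma adjusted p = 0.0271), whereas Gpha2 (-0.20, limma adjusted p = 0.0633) and Tomm6 (-0.09, limma adjusted p = 0.310) did not pass. Igha, the immunoglobulin alpha heavy chain, lay under background on all CGP arrays and on 2 of the 3 control arrays.

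**Figure D4:**
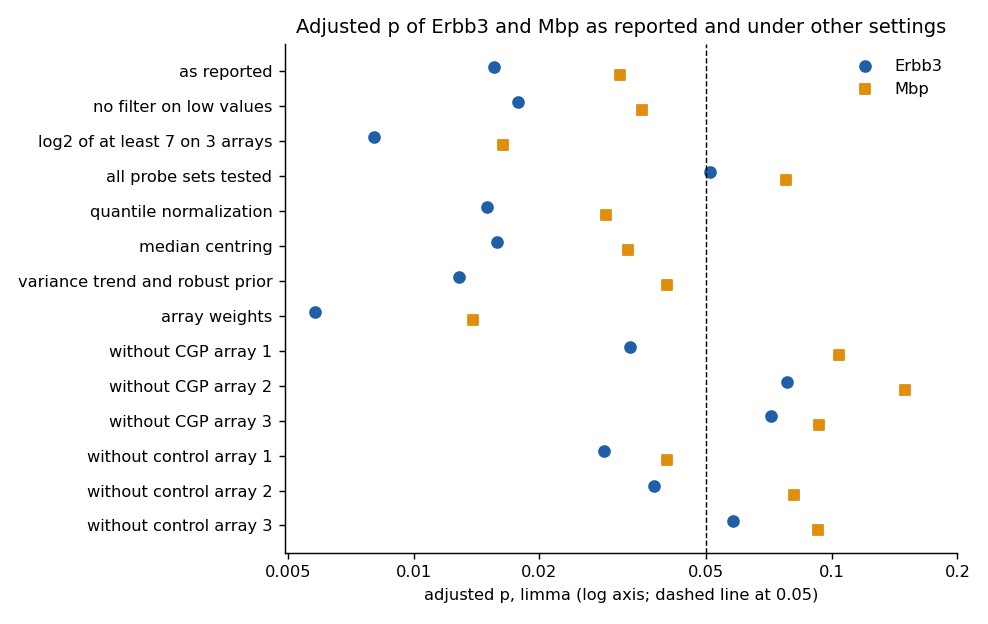
Limma adjusted p (horizontal log axis, dashed line at 0.05) of Erbb3 (blue circles) and Mbp (orange squares) as reported, under other filters, normalisations and variance models, and without each array (vertical axis). Erbb3 lies between 0.00579 and 0.0784 and Mbp between 0.0139 and 0.150. Both lie past the line when all probe sets are tested and when CGP array 2, CGP array 3 or control array 3 is left out. The fit with array number as a block is not plotted, and both calls were lost in it (Erbb3 0.0702, Mbp 0.160).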

How the data were processed

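Total RNA from pooled adrenals was hybridised to Affymetrix whole-transcript arrays, 3 per group. The authors deposited a single table with log2 values of 25150 probe sets, made with RMA (background correction, quantile normalisation and probe summary) and Partek per the submitters' processing notes, so that values are comparable between arrays for a probe set but not between probe sets. The sources used here give no versions and no genome build. Values were used as deposited. RMA compresses differences near background. The precision is limited by the number of arrays.

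Names came from the platform annotation, which gave 1 gene symbol to 16769 probe sets, several to 1031 and none to 7350. Those with 1 symbol that reached a log2 value of 6 on 3 or more arrays were tested (16034, of 14727 genes). Groups were compared by limma 3.58.1 under R 4.3.3 (two-sided moderated test from lmFit and eBayes, no covariates), with Benjamini-Hochberg adjustment over all tested probe sets and a threshold of 0.05. SE is the moderated standard error, and intervals are 95% limma intervals. A list was described by the brightest probe set of each gene. The script was tested on simulated data. Promoter windows came from RefSeq (GRCm38.p6) and no coordinates of the arrays were used.

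The genes and lists were chosen with earlier results of these data known. Named were all members, up to 4 called genes per list, a set of reference genes and the 5 genes most like the member of smallest p. Other settings tried were other filters, testing all probe sets, median centring, quantile normalisation, array weights, another variance model, a block for array number and omission of each array in turn.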

Additional observations from a re-analysis of the deposited data

How the results depend on the processing

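The signs of the differences of Mbp, Erbb3, Sox10, Fabp7 and Pmp22 were the same in all 14 other fits, and Sox10, Fabp7 and Pmp22 passed in none. The count of called members stayed at 2 without a filter, with a minimum of 7, with quantile normalisation, median centring, a variance trend and robust prior, or array weights. It was 0 when all probe sets were tested, 0 with the array number as a replicate block, and 0 to 2 when single arrays were left out: 2 without control array 1, 1 (Erbb3) without CGP array 1 or control array 2, and 0 without CGP array 2, CGP array 3 or control array 3. The count over all probe sets was 566 as reported, 348 with all probe sets tested, 1261 with a variance trend and robust prior, 1665 with array weights, 224 with the replicate block, and 236 to 1099 when single arrays were left out, with 1099 without control array 1 and at most 364 without any other. Higher calls outnumbered lower ones as reported (311 and 255) but not with all probe sets tested (139 and 209), with the replicate block (68 and 156) or without CGP array 1 (151 and 169), CGP array 2 (79 and 157), CGP array 3 (88 and 149), control array 2 (157 and 207) or control array 3 (114 and 155). In the blocked fit, Erbb3 had an adjusted p of 0.0702 and Mbp of 0.160. The array numbers are not known to pair the samples: the deviations of same-numbered arrays correlated at -0.357, -0.169 and -0.118, and no array correlated best with its own number. The cause of these shifts was not tested. Gfap lay under background on all 6 arrays, and no setting can give it a level.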

Other observations

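Other cell types of the gland were read against the 3.53% of all tested probe sets that were called. Summed linear signal was higher on every CGP array for fibroblasts (7000 to 7170 against 6530 to 6760) and the ErbB list. The same held for the adrenal cortex (104000 to 108000 against 99100 to 103000). It was lower on every CGP array for macrophages and lymphocytes (5310 to 5450 against 5650 to 5700), neurons and central glia. A sum is set mostly by the brightest probe sets of its list and does not measure a number of cells. The brightest were Nedd4 in the ErbB list (0.17) and Aldh1l1 among central glia (-0.18), and neither passed (limma adjusted p = 0.0857 and 0.0627). Of the 6 central glia genes, 4 had a negative difference, and Pdgfra (0.11) and Cspg4 (0.16) a positive one. Of 12 fibroblast genes, 2 were higher in the CGP group, 1 was lower and 9 did not pass (limma, adjusted p under 0.05), with a median of 0.11. Mfap5, a microfibril protein, was higher by 0.30 (SE 0.05, limma adjusted p = 0.0130) and Pi16, a peptidase inhibitor of fibroblasts, by 0.22 (SE 0.05, limma adjusted p = 0.0494), while Fn1, fibronectin, which hepatocytes also secrete, was lower, with a difference of -0.25 (SE 0.05, limma adjusted p = 0.0360). The call of Pi16 was lost whichever of the 6 arrays was left out, that of Fn1 with each except control array 2, and that of Mfap5 with each of the CGP arrays. By limma, 0 of 12 endothelial genes passed, with 1 at an unadjusted p under 0.05, and 0 of 9 genes of macrophages and lymphocytes, with 2 at an unadjusted p under 0.05. An unadjusted limma p under 0.05 was seen at 19.3% of all tested probe sets. Of 11 genes of the adrenal cortex, Cyp11b2, aldosterone synthase, was higher by 0.50 (SE 0.05, limma adjusted p = 0.00144) and 10 did not pass, among them Star (0.09, limma adjusted p = 0.318) and Cyp11b1 (0.07, limma adjusted p = 0.432).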
